A study of Homo sapiens with 6 samples.

Results

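Cells remove damaged or mispaired bases from DNA by several routes, and 41 genes of these routes are described here in 5637 cells, an established human bladder carcinoma line. They were chosen by symbol for their function, as 17 genes of nucleotide excision repair, 18 of base excision and single-strand break repair, 5 of mismatch repair and 1 of direct reversal. All 41 were found among the 23024 genes listed. Gene expression was measured by RNA sequencing in 6 libraries, 3 titled NC and labelled wild type, and 3 titled sh-RAD51C, in which a short hairpin RNA was aimed at RAD51C, labelled as a knockdown. All 6 come from the same line, and RNA was taken from transfected cells in both groups. The meaning of NC, the hairpin's sequence and the number of separate cultures are not stated in the labels. P-values therefore reflect the spread among these libraries, and that spread may be technical.

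Nucleotide excision repair cuts out a stretch of the strand around bulky lesions such as those made by ultraviolet light. Damage is found either anywhere in the genome, by XPC and the DDB1-DDB2 complex, or where RNA polymerase stalls, by ERCC6 and ERCC8, and both routes then use the helicases of TFIIH and the nucleases ERCC1-ERCC4 and ERCC5. Base excision repair begins with a DNA glycosylase that removes a single altered base, continues with an AP endonuclease that nicks the strand there, and ends with gap filling by POLB and sealing by LIG3 on the scaffold XRCC1. Mismatch repair corrects errors left by replication, and MGMT removes alkyl groups from guanine directly.

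RAD51C, the gene targeted by the hairpin, was at 14.7, 13.2 and 13.6 FPKM in NC 1, 2 and 3 and at 3.51, 3.09 and 2.95 FPKM in sh-RAD51C 1, 2 and 3, where FPKM is the read count scaled by gene length and library total. Every knockdown library was below every NC library, at 23.0% of the NC mean (limma adjusted p = 7.16e-09; exact two-sided permutation test p = 0.1, the smallest that 3 libraries against 3 allow). Inferred depth ran from 36068282 to 38079825 reads per library. All 9 epithelial and urothelial markers were above 1 FPKM on average, with summed levels of 2905 to 2997 FPKM in NC and 2664 to 2766 FPKM in sh-RAD51C. All 9 were called, 5 higher and 4 lower, where 49.4% of all genes tested were called. They ran from KRT5 at 43.9% of its NC mean to KRT7 at 1.68-fold. The fibroblast gene COL1A2, the leukocyte gene PTPRC and the endothelial gene CLDN5 were at or near 0 FPKM. The 5 endothelial markers summed to 0.16 to 0.221 FPKM in NC and 0.331 to 0.458 FPKM in sh-RAD51C, with CDH5 at 0.0239 and 0.245 FPKM (2 to 50 inferred reads per library), KDR at 0.0138 and 0.0513 FPKM and PECAM1 at 0.114 and 0.0409 FPKM, all too low to be tested. The fibroblast gene COL1A1 was at 9.94 FPKM in NC and 6.83 FPKM in sh-RAD51C and the monocyte gene CD14 at 1.57 and 0.573 FPKM, both called lower. The part of these markers in the changes of the members was not tested. Libraries of a group correlated at 0.997 to 0.998 on the log2 scale over the genes tested (11152 genes), against 0.979 to 0.984 between groups.

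Repair genes of this kind that were tested changed in both directions in sh-RAD51C and by small amounts. Of the 41 members, 38 averaged at least 1 FPKM and were tested, and 10 were higher, 7 lower and 21 not called (limma, Benjamini-Hochberg adjusted p under 0.05 over all genes tested). The 17 called members are 44.7% of those tested, against 49.4% of all 11152 genes, where 23.2% were higher and 26.2% lower. The median log2 fold change of the 38 was 0.03, against -0.01 for all genes, and their median absolute change was 0.11, against 0.15. Log2 fold changes here are differences in log2(FPKM + 1) and understate the change of genes with low values. In bulk RNA, fewer cells that express a gene and less RNA per cell cannot be told apart. No member tested changed by 1 or more on the log2 scale, and 3 did by at least 0.3 (7.89%, against 22.1% of all genes). MGMT, too low to be tested, was 2.42-fold lower by means. With libraries rescaled by median ratio size factors the members split into 12 higher and 4 lower, while of all genes 27.9% were then higher and 22.9% lower. With quantile normalization the members split into 12 higher and 5 lower, beside 25.7% and 24.1% of all genes.

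**Figure D1:**
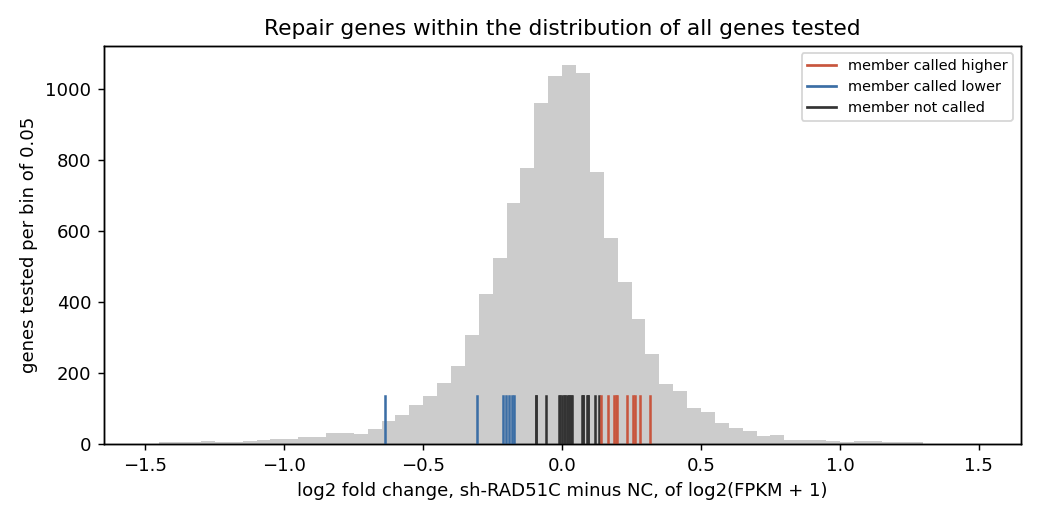
Histogram of the log2 fold change (sh-RAD51C minus NC, horizontal axis, in log2(FPKM + 1)) of the genes tested, in bins of 0.05 (vertical axis, genes per bin); 48 genes beyond 1.5 on either side are not drawn. Vertical marks are the 38 repair genes tested, which run from -0.64 for DDB2 to 0.32 for UNG.

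Calls differed in how firmly they held. For DDB2, RAD23B, GTF2H1, GTF2H4, ERCC1, UNG, APEX1, APEX2 and XRCC1, 9 genes in all, the call held in each of 14 alternative fits, and these same 9 had an adjusted p under 0.01, as did 35.2% of all genes. The remaining 8 calls (XPC, GTF2H5, XPA, NTHL1, NEIL1, NEIL3, MPG and PARP2) were each lost in at least 1 alternative, with no change of sign. Without NC replicate 1 the count of called members was 10 (26.3% of those tested, against 42.2% of all genes in that fit), 6 higher and 4 lower, beside 19.4% and 22.8% of all genes. Without NC replicate 3 or sh-RAD51C replicate 2 there were also 4 lower (10.5%, against 22.3% and 23% of all genes). In 17 of the 38 members tested the groups did not overlap, with 11 higher and 6 lower in sh-RAD51C. Among all genes tested 58.4% were apart in this way, 27.6% higher and 30.8% lower.

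**Figure D2:**
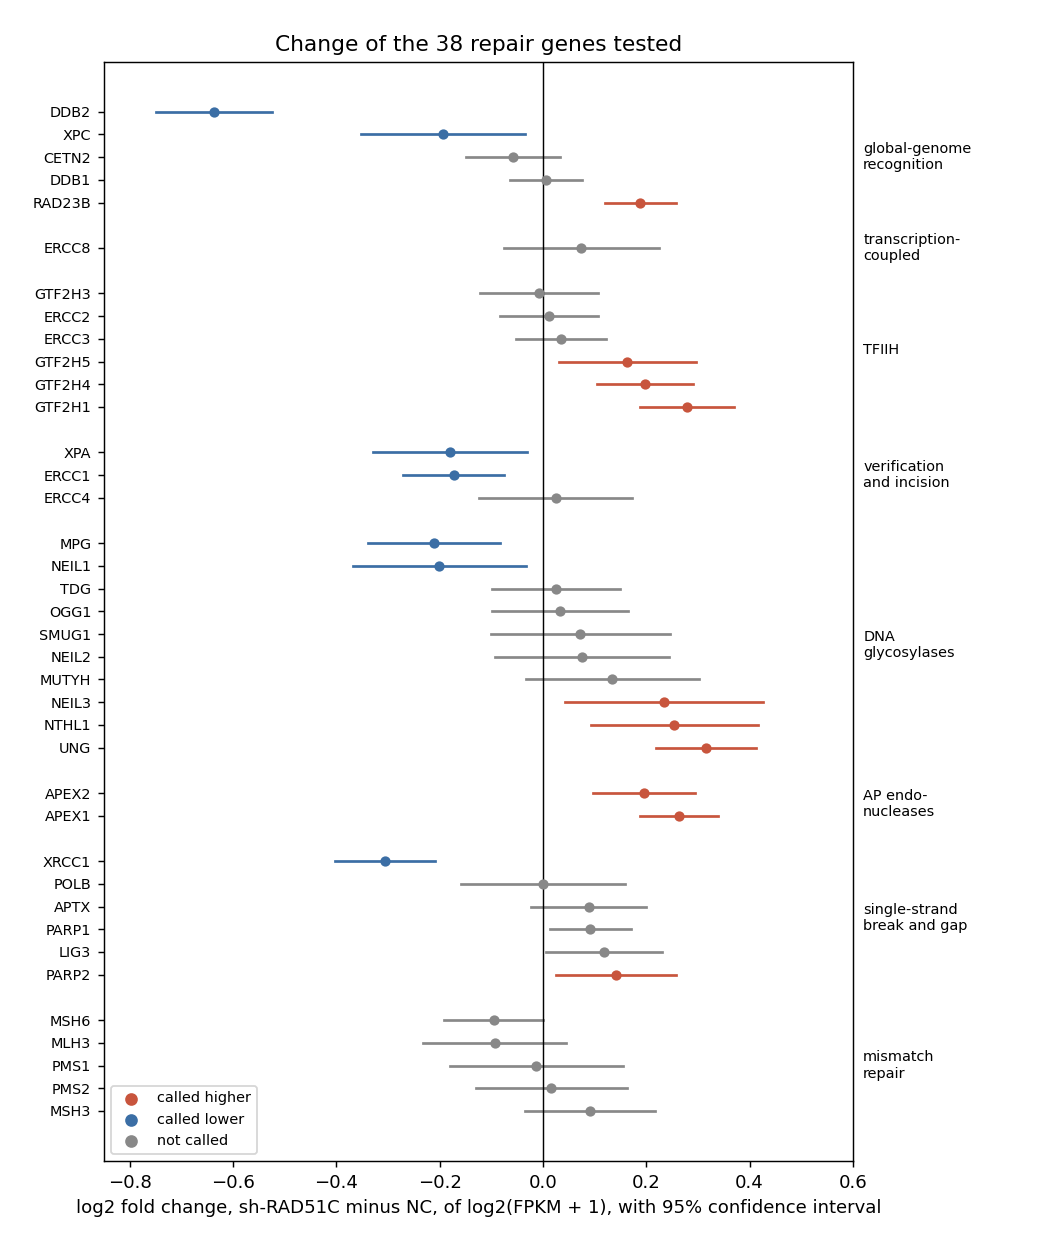
Log2 fold change of each of the 38 members tested (horizontal axis, sh-RAD51C minus NC in log2(FPKM + 1); points with 95% confidence intervals from limma), grouped by role. The AP endonucleases and 3 of 6 TFIIH genes lie to the right, DDB2 lies farthest to the left, and no mismatch repair gene was called.

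The members spanned a wide range of levels. APEX1, at 145 ± 2.38 FPKM in NC (SD, n = 3), was the most abundant, followed by DDB1 (126 ± 0.66), RAD23B (103 ± 0.255) and PARP1 (89.1 ± 2.40). Means of the members ranged in nucleotide excision repair from 0.517 FPKM for ERCC6 to 126 FPKM for DDB1 and in mismatch repair from 2.7 FPKM for PMS1 to 35.7 FPKM for MSH6, over all 6 libraries. MGMT was the lowest of all, at 0.151 FPKM on average. The order of the 4 most abundant members was the same in sh-RAD51C, where APEX1 stood at 174 ± 3.97 FPKM and DDB1 at 126 ± 1.6 FPKM.

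**Figure D3:**
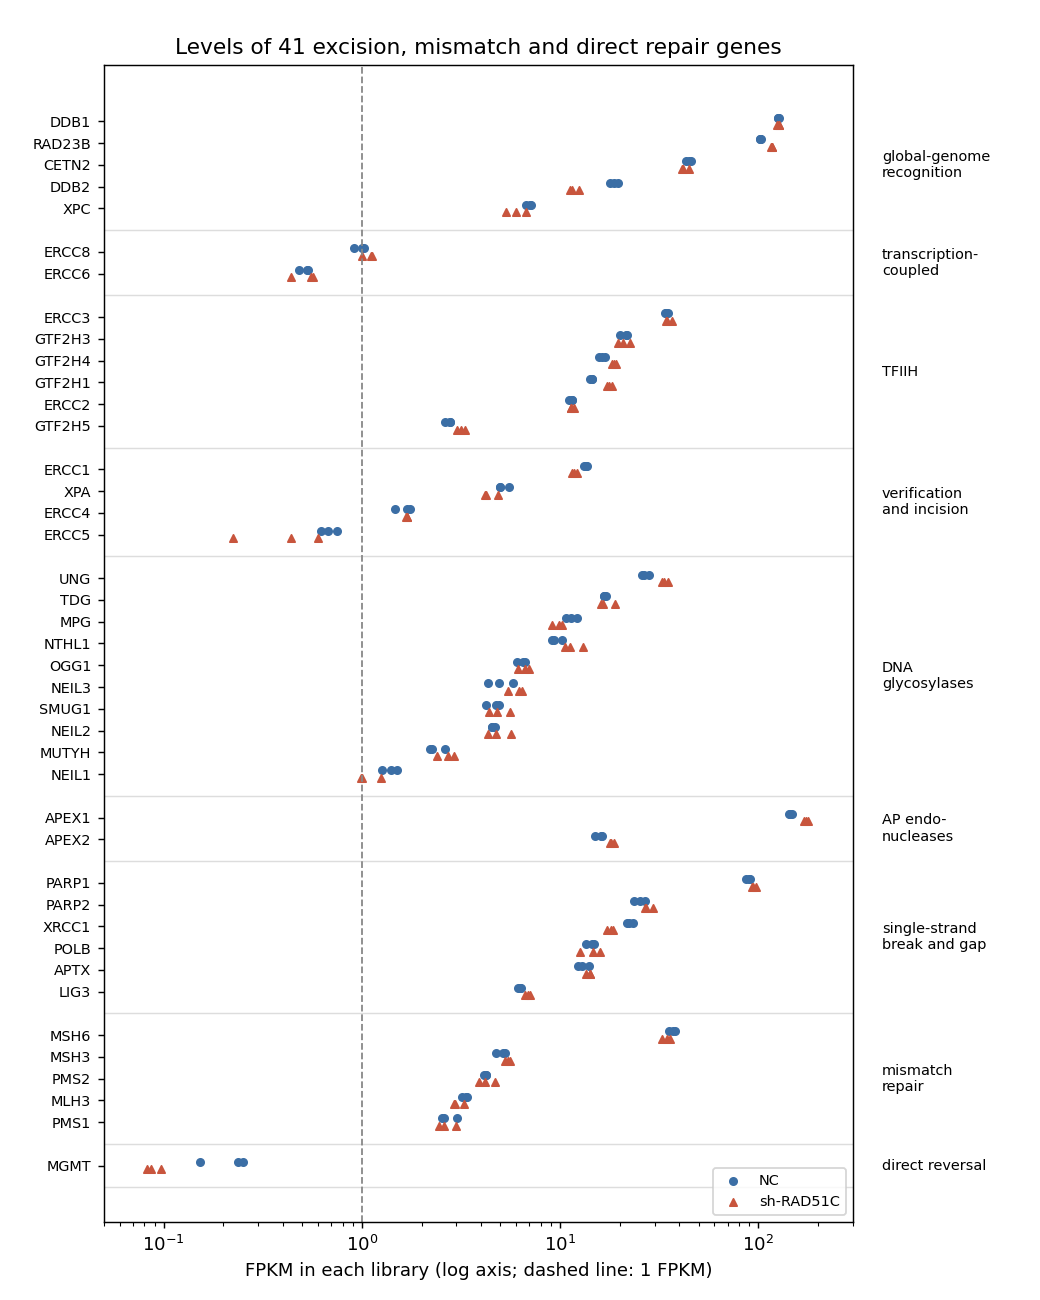
FPKM of the 41 members in every library (horizontal log axis; circles NC, triangles sh-RAD51C), grouped by role and sorted by mean level within a role. ERCC6, ERCC5 and MGMT lie left of the dashed line at 1 FPKM and were not tested; in most other rows the circles and triangles lie close together.

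Among the genes that recognise damage across the genome, DDB2 changed most on the log2 scale. DDB2 binds ultraviolet photoproducts as the small partner of DDB1 and is a well-known p53 target. Its level was 18.0, 18.7 and 19.6 FPKM in NC 1, 2 and 3 (1176, 1275 and 1337 inferred reads) and 12.5, 11.3 and 11.4 FPKM in sh-RAD51C 1, 2 and 3 (861, 758 and 789 inferred reads). All 3 knockdown libraries were below all 3 NC libraries. It fell by 0.64 ± 0.051 on the log2 scale (SE; limma adjusted p = 2.26e-06), 1.6-fold by means, and 4.71% of all genes tested changed by more in either direction. The gene (ENSG00000134574.11) is on the plus strand of chromosome 11, from 47214465 to 47239240.

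The 250 bases before the RefSeq start site of DDB2 (GRCh38.p14, chr11:47214204-47214453, plus strand, chosen because this gene moved most among the members tested, on the log2 scale) overlap no exon in GENCODE release 29. They hold 3 copies of CCAAT, shown in capitals, counted on both strands. Of the promoters of genes tested, 4.93% hold 3 or more copies in such a window.
DDB2: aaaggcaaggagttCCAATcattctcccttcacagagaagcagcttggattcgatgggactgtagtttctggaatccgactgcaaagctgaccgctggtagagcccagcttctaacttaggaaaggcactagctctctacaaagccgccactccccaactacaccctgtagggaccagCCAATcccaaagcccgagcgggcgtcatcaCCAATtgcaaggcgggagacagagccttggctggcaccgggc

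DDB1, which links DDB2 to the CUL4 ubiquitin ligase, was at 126 ± 0.66 FPKM in NC and 126 ± 1.6 FPKM in sh-RAD51C (SD, n = 3), and was not called. Its log2 difference was 0.01 with a 95% interval from -0.06 to 0.08. RAD23B, which stabilises XPC, rose from 103 ± 0.255 to 117 ± 0.871 FPKM, a log2 fold change of 0.19 (limma adjusted p = 0.000493). XPC itself, the lesion sensor, was called lower, at 7.0 ± 0.226 against 6.02 ± 0.726 FPKM. Its groups overlapped, since sh-RAD51C 3 (6.77 FPKM) was above NC 1 (6.74 FPKM). That call was lost on omission of any 1 library other than sh-RAD51C 3 (limma adjusted p from 0.0593 to 0.135). CETN2, the third subunit of the XPC complex, was not called.

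The members that start transcription-coupled repair were near or below 1 FPKM. ERCC8, part of the ubiquitin ligase that acts at stalled polymerase, was at 0.908, 1.02 and 0.998 FPKM in NC 1, 2 and 3 and at 1.12, 1.12 and 1.00 FPKM in sh-RAD51C 1, 2 and 3. The groups overlapped, and the gene was not called (limma adjusted p = 0.395, or 0.0345 with quantile normalization). ERCC6, the polymerase-bound translocase, averaged 0.515 ± 0.0269 FPKM in NC and 0.519 ± 0.0683 FPKM in sh-RAD51C, below the level tested, although on 514 to 657 inferred reads per library. The gene lengths inferred from the FPKM values were 9920 bases for ERCC8 and 30621 for ERCC6. These exceed their 2017 and 10050 exonic bases in the basic set of GENCODE release 29, which holds only part of its transcripts. A longer length gives a lower FPKM. Other factors of the same route, which are no members, differed in level. ELOF1 was at 24.1 and XAB2 at 24.5 FPKM in NC, and neither was called. UVSSA was at 0.749 ± 0.0678 FPKM in NC and 0.62 ± 0.0986 FPKM in sh-RAD51C, below the level tested. Its knockdown libraries were all below its NC libraries by a narrow margin, on 327 to 524 inferred reads per library.

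TFIIH opens the DNA around a lesion and also serves in transcription initiation. Of its 6 members here, 3 were higher, 0 lower and 3 not called, a share of 50% called against 49.4% of all genes. GTF2H1, the p62 core subunit, was at 14.5, 14.2 and 14.5 FPKM in NC 1, 2 and 3 and at 17.2, 17.7 and 18.3 FPKM in sh-RAD51C 1, 2 and 3. All knockdown libraries were above all NC libraries, and the gene rose by 0.28 ± 0.041 (SE; limma adjusted p = 0.000219). GTF2H4, the p52 subunit that anchors the XPB helicase, rose from 16.3 ± 0.511 to 18.8 ± 0.449 FPKM (log2 fold change 0.20). GTF2H5, a small stabilising subunit, was called higher at 3.18 ± 0.15 against 2.73 ± 0.0901 FPKM, but not on omission of any 1 library other than sh-RAD51C 2 (limma adjusted p from 0.0736 to 0.141).

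The TFIIH helicase genes ERCC2 (XPD) and ERCC3 (XPB) were not called. ERCC2 was at 11.4 ± 0.185 and 11.5 ± 0.233 FPKM and ERCC3 at 34.3 ± 0.473 and 35.2 ± 1.4 FPKM, in NC and sh-RAD51C. GTF2H3 was not called either. CDK7 and CCNH, the kinase and cyclin that join TFIIH for transcription, are no members and were picked after their values were seen. They were called higher, with log2 fold changes of 0.21 and 0.20, and kept their call in 9 of 14 and 11 of 13 alternatives. CDK7 was not called without NC 2, sh-RAD51C 1 or sh-RAD51C 2 (limma adjusted p = 0.122, 0.0774 and 0.0978), and CCNH was not called without NC 2 or NC 3 (0.0554 and 0.0508). MNAT1, the third subunit of that kinase complex, and GTF2H2, a core subunit, are also no members and were not called (limma adjusted p = 0.107 and 0.0733).

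Genes of damage verification and incision went the other way or were not called. ERCC1, the partner that positions the ERCC4 nuclease on the 5′ side of the lesion, was at 13.8, 13.2 and 13.4 FPKM in NC 1, 2 and 3 and at 11.8, 11.5 and 12.2 FPKM in sh-RAD51C 1, 2 and 3. The knockdown libraries were all below the NC libraries, and the gene fell by 0.17 ± 0.044 on the log2 scale (SE; limma adjusted p = 0.00727). XPA, which checks the lesion within the open complex, was called lower at 4.43 ± 0.392 against 5.15 ± 0.321 FPKM. That call was lost without any 1 library other than sh-RAD51C 3 (limma adjusted p from 0.0593 to 0.18). ERCC4 was not called, at 1.64 ± 0.15 and 1.68 ± 0.0147 FPKM in NC and sh-RAD51C.

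ERCC5, the nuclease on the other side of the lesion, averaged under 1 FPKM and was not tested. It was at 0.677, 0.623 and 0.746 FPKM in NC 1, 2 and 3 and at 0.223, 0.603 and 0.44 FPKM in sh-RAD51C 1, 2 and 3, from 33 to 109 inferred reads per library. The groups did not overlap, but sh-RAD51C 2 lay close to NC 2. Without the filter on low values its limma adjusted p was 0.143. In the basic set of GENCODE release 29, 64.4% of its exonic bases are also annotated to the read-through gene BIVM-ERCC5. How reads were divided between these 2 genes is not known.

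Among the 10 DNA glycosylases, 3 were higher, 2 lower and 5 not called, again 50% called against 49.4% of all genes. UNG, which removes uracil from DNA, was at 25.9, 26.4 and 28.3 FPKM in NC 1, 2 and 3 and at 34.9, 33.5 and 32.6 FPKM in sh-RAD51C 1, 2 and 3. All knockdown libraries were above all NC libraries, by 0.32 ± 0.044 on the log2 scale (SE; limma adjusted p = 0.000148), the largest rise of any member tested, except that without sh-RAD51C 1 GTF2H1 rose more (0.30 against 0.29). NTHL1, which removes oxidised pyrimidines, was at 9.07, 9.28 and 10.3 FPKM in NC 1, 2 and 3 and at 13.1, 10.5 and 11.2 FPKM in sh-RAD51C 1, 2 and 3. Its groups did not overlap, although the highest NC and the lowest knockdown library were close. Its log2 fold change was 0.25 (limma adjusted p = 0.0141, but 0.0526 without NC replicate 1 and 0.0875 without the filter on low values).

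The glycosylases called lower were MPG and NEIL1. MPG, which removes alkylated purines, was at 11.4, 10.8 and 12.1 FPKM in NC 1, 2 and 3 and at 9.06, 9.90 and 10.2 FPKM in sh-RAD51C 1, 2 and 3. All knockdown libraries were lower, and it fell by 0.21 on the log2 scale (limma adjusted p = 0.0108, or 0.0501 without the filter on low values). NEIL1, a glycosylase for oxidised bases, was at 1.5, 1.26 and 1.4 FPKM in NC and at 1.25, 0.988 and 1.01 FPKM in sh-RAD51C, a change of -0.20. Its groups were apart by a narrow margin, and the call was lost without NC 1, NC 3, sh-RAD51C 2 or sh-RAD51C 3 (limma adjusted p from 0.104 to 0.148) and with quantile normalization (0.346).

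NEIL3, the member of the same family that also acts at replication-blocking crosslinks, was called higher at 6.03 ± 0.494 against 5.00 ± 0.741 FPKM, with overlapping groups. The call was lost without NC 1, NC 2, sh-RAD51C 2 or sh-RAD51C 3 (limma adjusted p from 0.0993 to 0.184). OGG1 and MUTYH, which act on 8-oxoguanine and the adenine opposite it, were not called, and neither were SMUG1, TDG and NEIL2. The log2 differences of these 5 ran from 0.02 for TDG to 0.13 for MUTYH.

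Both AP endonucleases rose. APEX1, the main enzyme that cuts at abasic sites, was at 144, 143 and 148 FPKM in NC 1, 2 and 3 and at 178, 175 and 170 FPKM in sh-RAD51C 1, 2 and 3, from 7563 to 9841 inferred reads per library. Every knockdown library was above every NC library, and it rose by 0.26 ± 0.034 on the log2 scale (SE; limma adjusted p = 8.46e-05), 1.2-fold by means. The gene (ENSG00000100823.11) is on the plus strand of chromosome 14, from 20455191 to 20457772. APEX2, a weaker paralog with exonuclease activity, rose by 0.20 on the log2 scale (limma adjusted p = 0.00408), with means of 15.8 ± 0.69 FPKM in NC and 18.2 ± 0.484 FPKM in sh-RAD51C.

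Sites before the RefSeq start sites of 3 genes that rose are shown because APEX1 holds several copies of CACGTG, the E-box core. They were chosen after the search. Capitals mark CACGTG, and in UNG the letters GCGCATGC of the NRF1 motif read on the other strand. The windows are chr14:20455180-20455209 for APEX1, chr11:18322511-18322540 for GTF2H1 and chr12:109097563-109097592 for UNG, all on the plus strand of GRCh38.p14.
APEX1: atCACGTGaccaggtccgctaccCACGTGg
GTF2H1: gcgctcttgagtCACGTGcccagggcccgc
UNG: ccccgctcggaGCATGCGCgggccgcttgg

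RefSeq promoters were matched for 38 of the 41 members, and 250 bases before each start were searched on both strands for CACGTG (a palindrome), TTTCCCGC or TTTGGCGC (E2F), GCGCATGC (NRF1) and CCAAT. APEX1 held CACGTG 3 times and GTF2H1 held it 2 times. At least 3 copies were present in 0.155% of the promoters of genes tested, and at least 2 in 0.864%. CACGTG was present in 3 of 10 members called higher, 1 of 7 called lower, 2 of 18 not called and 1 of 3 not tested, against 9% of promoters of genes tested and 6.34% of all promoters. The E2F letters were present in 2 of 38 members (3.4% of genes tested, 1.93% of all promoters), the NRF1 letters in 5 of 38 (5.11% and 2.63%) and CCAAT in 17 of 38 (35.8% and 32%). In NEIL3 and MLH3 the NRF1 letters of the 2 strands overlap each other. These matches describe letters in a window, and binding was not measured.

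The later steps of base excision repair divided around XRCC1. XRCC1, the scaffold that holds POLB and LIG3 at a nick, was at 21.8, 23.4 and 22.2 FPKM in NC 1, 2 and 3 and at 18.6, 18.0 and 17.3 FPKM in sh-RAD51C 1, 2 and 3. The groups did not overlap, and it fell by 0.31 ± 0.044 on the log2 scale (SE; limma adjusted p = 0.000176), the largest fall after DDB2 among the members tested on this scale. By means NEIL1 fell more (1.29-fold, against 1.25-fold for XRCC1), and it also did with a pseudocount of 0.1 (-0.34 against -0.32) and with voom on inferred reads (-0.37 against -0.32). PARP2, which senses strand breaks together with PARP1, was called higher at 27.9 ± 1.36 against 25.2 ± 1.67 FPKM, but not without NC 1, NC 2, sh-RAD51C 1 or sh-RAD51C 3 (limma adjusted p from 0.062 to 0.191).

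PARP1 and LIG3 were not called although their groups did not overlap. PARP1 was at 89.1 ± 2.40 and 95.1 ± 2.31 FPKM in NC and sh-RAD51C (limma adjusted p = 0.0534), and LIG3, the ligase of this route, at 6.26 ± 0.108 and 6.88 ± 0.232 FPKM (0.0743). Without sh-RAD51C replicate 1 both passed, with limma adjusted p of 0.0329 for PARP1 and 0.0385 for LIG3. POLB, the gap-filling polymerase, was at 14.3 ± 0.683 and 14.4 ± 1.69 FPKM, a log2 difference of 0.00 with a 95% interval from -0.16 to 0.16. APTX, which repairs failed ligation ends, was not called.

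**Figure D4:**
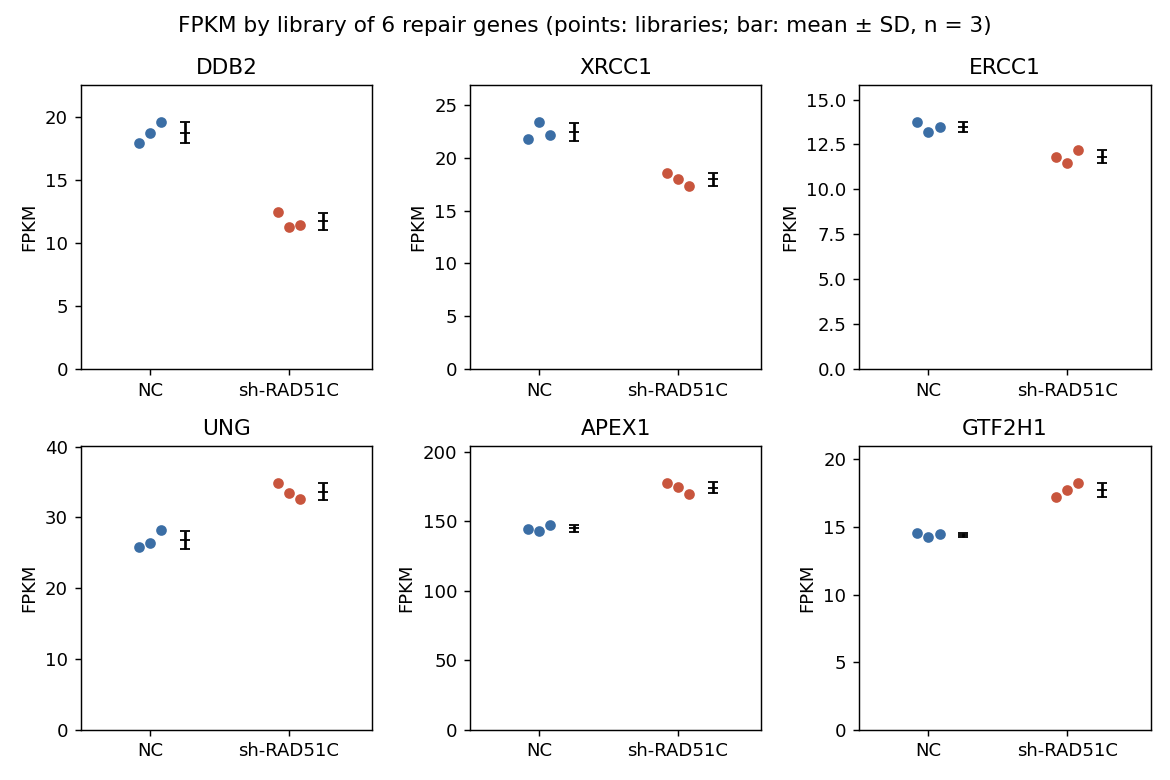
FPKM (vertical axes, starting at 0) of 6 members in each library, with mean and SD of each group (n = 3). For DDB2, XRCC1 and ERCC1 all sh-RAD51C points lie below all NC points, and for UNG, APEX1 and GTF2H1 all lie above.

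None of the 5 mismatch repair members was called. MSH6, which recognises single mispairs, was at 37.2, 38 and 35.5 FPKM in NC 1, 2 and 3 and at 32.8, 35.9 and 34.7 FPKM in sh-RAD51C 1, 2 and 3. The groups overlapped, and its log2 difference was -0.10 with a 95% interval from -0.19 to 0.00 (limma adjusted p = 0.0904, or 0.0452 with quantile normalization). MSH3, which recognises larger loops, was at 5.04 ± 0.277 and 5.43 ± 0.176 FPKM (SD, n = 3), with an interval from -0.03 to 0.22. MLH3, PMS1 and PMS2, subunits of the endonuclease complexes that act after recognition, had log2 differences from -0.09 to 0.02. At 3 libraries per group the intervals of these 5 genes leave room for changes up to 0.23 in size.

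MGMT, the alkylguanine transferase whose loss sensitises tumours to alkylating drugs, was at 0.238, 0.25 and 0.152 FPKM in NC 1, 2 and 3 and at 0.0965, 0.0826 and 0.086 FPKM in sh-RAD51C 1, 2 and 3. These values rest on 42, 46 and 28 inferred reads in NC and 18, 15 and 16 in sh-RAD51C. All knockdown libraries were lower, 2.42-fold by means, but the gene was under the level tested. Without the filter on low values its limma adjusted p was 0.0209, in a fit that called 22.8% of the 23024 genes listed, and p was 0.1, the smallest possible, in an exact two-sided permutation test.

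Ratios of partner genes within a library do not depend on how the library was scaled, and are given as a description with no test. The direction of a ratio follows from which gene is written first, and DDB2, XPC, XRCC1 and ERCC1, all called lower, were written first. The ratio of DDB2 to DDB1 FPKM was 0.143, 0.149 and 0.155 in NC 1, 2 and 3 and 0.1, 0.0887 and 0.0896 in sh-RAD51C 1, 2 and 3, so that DDB2 per DDB1 was 62.2% of its NC mean. XRCC1 to LIG3 was 3.54, 3.72 and 3.50 in NC and 2.80, 2.54 and 2.50 in sh-RAD51C. XPC to RAD23B averaged 0.0682 ± 0.00227 in NC and 0.0515 ± 0.00652 in sh-RAD51C, with groups apart although those of XPC alone overlapped. MSH6 to MSH3 averaged 7.33 ± 0.234 and 6.36 ± 0.428, and its groups were also apart while neither gene was called. ERCC1 to ERCC4 was 9.38, 7.78 and 7.69 in NC and 7.03, 6.78 and 7.33 in sh-RAD51C, apart by less than the spread within NC. PARP2 to PARP1 overlapped between groups, at 0.283 ± 0.0255 and 0.294 ± 0.0203.

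**Figure D5:**
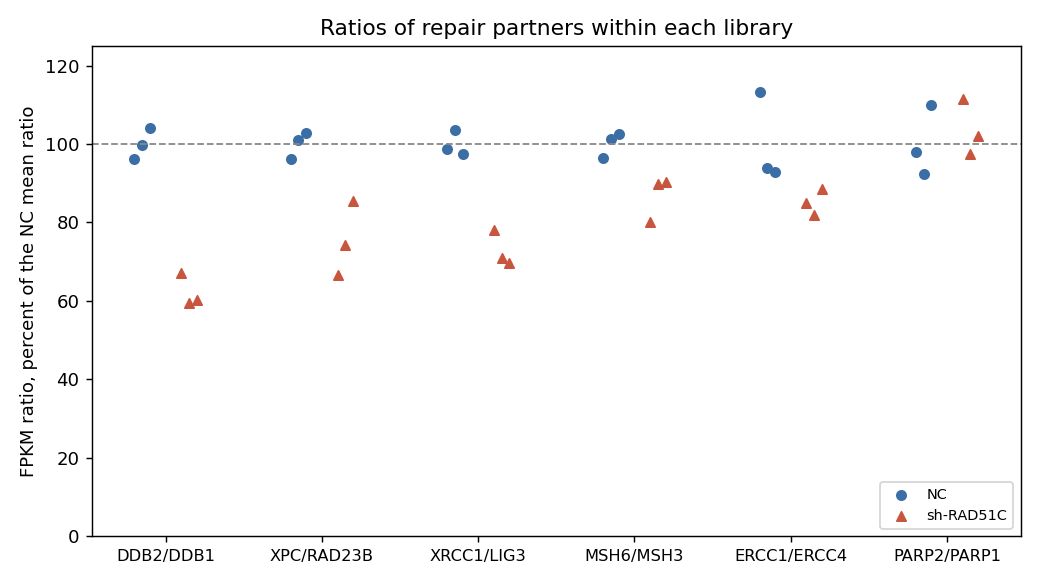
FPKM ratio of 6 pairs of repair partners in each library, as a percent of the NC mean ratio (vertical axis, from 0; circles NC, triangles sh-RAD51C). In 5 of 6 pairs every sh-RAD51C library lies below every NC library, beside 58.4% of single genes tested with groups apart; in 4 of the 5 the gene written first was called lower. DDB2 to DDB1 is lowest.

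Other genes of the same routes, 47 in number and listed by function, showed a like share of calls. Of 43 tested, 13 were higher, 7 lower and 23 not called (46.5%, against 49.4% of all genes), and without NC replicate 2 the count was 13 (30.2%, against 40.5% of all genes), with 8 higher (18.6%, against 19.1%). POLE4, a histone-fold subunit of DNA polymerase epsilon, rose from 23.6 ± 0.661 to 31.5 ± 1.37 FPKM (log2 fold change 0.40). POLD4, the smallest subunit of DNA polymerase delta, fell from 9.81 ± 0.309 to 7.16 ± 1.13 FPKM (-0.41). Proliferation and S phase markers had 4 higher, 2 lower and 6 not called of 12 (50% called, near the 49.4% of all genes). Their summed levels were 664 to 671 FPKM in NC and 692 to 701 FPKM in sh-RAD51C. The part of the proliferation markers in the members' values was likewise not tested.

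Several members lie head to head with another gene. In GENCODE release 29, 15 members have a start within 1000 bases of an oppositely directed gene that averaged at least 1 FPKM. Of these 15 pairs the member was called in 6 and the neighbour in 8, near the 49.4% of all genes, and both were called in 1. MPG and its neighbour RHBDF1 both fell (-0.21 and -0.33). AIMP2, whose start lies 120 bases from that of PMS2, rose from 14.2 ± 0.756 to 21.7 ± 0.205 FPKM while PMS2 was at 4.20 ± 0.0529 and 4.27 ± 0.419 FPKM and not called. NDUFAF2, beside ERCC8, rose from 20.5 ± 1.33 to 27.4 ± 1.39 FPKM. The neighbours were named after their values were seen.

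Exons of 21 members overlap an exon of another annotated gene, mostly on the opposite strand. Strand use in counting is not given in the sources used here, so reads of such genes cannot be told apart. The shared part was 43.8% of exonic bases for LIG3 (with RFFL, at 0.458 FPKM), 36.6% for ERCC1 (with CD3EAP), 24.3% for ERCC4 and 21% for MSH6 (with FBXO11, at 20.8 FPKM). It was 3.62% for APEX1, and DDB2, UNG, GTF2H1 and RAD23B shared no exonic base in that set.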

How the data were processed

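The authors deposited FPKM values per gene and library. In the submitters' processing notes hg38 is the build, and R 3.2.0 and DESeq2 appear with no role. The aligner, counter, strand setting and annotation were not given in the sources used here. Titles matched all 6 columns to libraries, and 0 columns were unused. Genes averaging at least 1 FPKM were fitted as log2(FPKM + 1) in limma 3.58.1 under R 4.3.3, using a trended empirical Bayes prior, no covariate and Benjamini-Hochberg adjustment over all 11152 genes, and called at an adjusted p under 0.05. Whole reads were inferred from the steps of the FPKM values, whole within 0.00001 reads for every gene tested. They served for depth and for an added alternative. Fit and inference were tested on simulated libraries. Within-group pairs of libraries gave a chi-square of 3.69 to 14.3 per degree of freedom, more than sampling noise and highest for pairs with sh-RAD51C 1. Values for each library are given for members called by at least 0.2 with groups apart and for the member of each role with the smallest p. Companions were to be named at a call of at least 0.3, which POLE4 and POLD4 met. CDK7, CCNH, MNAT1, GTF2H2, ELOF1, XAB2 and UVSSA did not meet it and were named outside that rule. Members, lists and tests were chosen with earlier results of these data known. Positions, exonic bases, exon overlaps and neighbours are from the basic set of GENCODE 29 (GRCh38, also called hg38). The exon check before DDB2 used its comprehensive set. Promoters are from RefSeq (GRCh38.p14). SMUG1, NEIL2 and POLB had no promoter matched.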

Additional observations from a re-analysis of the deposited data

How the results depend on the processing

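RAD51C, the median of the members and 5 of 6 partner ratios kept their direction, and RAD51C its call, in every alternative run for them. PARP2 to PARP1, at 1.04 times its NC mean, was at 0.998 without NC replicate 2 or without sh-RAD51C replicate 1. Of 38 members tested, 17 were called, 10 higher and 7 lower (44.7%, against 49.4% of all genes). Without the filter on low values 10 of 41 were called (6 higher, 4 lower), beside 22.8% of all genes in that fit. At an adjusted p under 0.01 there were 9 of 38 (6 higher, 3 lower), beside 35.2% of all genes. With median ratio size factors 4 of 38 were lower, beside 22.9% of all genes. Omitting single libraries gave 10 to 15 called members of 38, 6 to 10 higher and 4 to 6 lower. Called companions were 13 to 21 of 43, 8 to 13 higher. Of all 11152 genes, 4522 to 5464 were called in these fits, 2129 to 2609 higher and 2393 to 2855 lower. At an adjusted p under 0.01, 11 of 43 companions were called, 6 of them higher, beside 35.2% of all genes. At a mean of at least 5 FPKM, 1859 genes were lower, of fewer genes tested. With the replicate number as a block, 16 members and 5569 genes were called, against 17 and 5511. Deviations of same-numbered libraries from their group means correlated at 0.19, 0.0257 and 0.0909, and those of differently numbered libraries at -0.167 to 0.11. With so few libraries these values cannot decide whether the numbers mark pairs. The labels state no batch shared by a replicate number, so the main fit had no block. No called member changed sign in any of 14 fits, and 11 of the 21 members not called did in at least 1. Fits that altered only the filter, the trend or the block left each log2 fold change as it was. No sign could change in those. Voom on inferred reads, chosen after seeing the data, called 12 of 38 members higher and 6 lower. Of all 11152 genes it called 2634 higher and 3034 lower. The cause of these shifts was not tested. MGMT rested on 15 to 46 inferred reads per library and ERCC5 on 33 to 109, which limits what can be said of them.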
